A study of Mus musculus with 15 samples.

Results

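Light zone germinal centre B cells with high Bcl6 and high CD69, called Fraction 2, were compared with dark zone cells, called DZ. The comparison used 6 of the 15 libraries of the series, 3 per group, and every gene above 0 in at least 3 of the 15 libraries, which left 11190 of 23420 genes. Each library was prepared from 100 sorted cells. All the cells descended from CD45.1+ donor B cells with the genotype B1-8hi (KI/+) Bcl6-YFP (KI/+), that is, 1 copy of a knock-in antigen receptor chain which favours binding of the hapten NP and 1 copy of a Bcl6 fluorescent reporter. The donor cells were placed in C57BL6 recipients that were then given NP-CGG in CFA, complete Freund's adjuvant, as immunization, and draining lymph nodes were taken on day 12. The 2 groups shared the gate B220+ CD45.1+ CD38lo GL7hi. DZ was then sorted as CXCR4hi CD86lo, and Fraction 2 as CXCR4lo CD86hi CD69hi Bcl6hi. Fraction 3, a light zone group of the same genotype and gate except that it was CD69lo, is used below only where it shows whether a change from DZ was larger in one light zone fraction. The transferred cells share 1 knock-in receptor chain, and the recipients kept their own B cells outside the CD45.1+ gate. The labels call the replicates separate library preparations without tying them to separate mice. Adjusted p-values below take their spread from all 15 libraries of 5 groups, and that spread may be technical.

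A germinal centre is the site in a lymph node where B cells mutate their antigen receptors and are selected. In the dark zone the cells divide and mutate. In the light zone they take up antigen, present it on MHC class II and receive help from follicular helper T cells through CD40 and cytokines. CD40 signals reach the nucleus through the NF-kB transcription factors. Help is known to induce the transcription factor gene Myc in a minority of light zone cells, which then return to the dark zone and divide. Bcl6 encodes a transcriptional repressor required for germinal centres, and CD69 is a surface protein that appears after activation.

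The transcripts of the surface markers were read as a check of the labels, since the sort had used the proteins. Levels here are deposited values scaled so that every library has the same total without Rn45s, and 1 molecule is worth 0.109 to 0.120 in the Fraction 2 libraries and 0.138 to 0.160 in DZ. Cxcr4 stood at 5.06, 3.11 and 3.17 in the 3 Fraction 2 libraries and at 10.7, 11.04 and 13.6 in DZ. Cd86 stood at 3.73, 6.11 and 4.81 in Fraction 2 and at 1.28, 2.76 and 0.723 in DZ. Both groups of libraries were thus apart in the direction of the gates. Bcl6 stood at 15.05, 17.8 and 13.8 in Fraction 2 and at 19.7, 15.3 and 18.8 in DZ, and these values overlapped (log2 change -0.20 ± 0.16, adjusted p = 0.640). Cd69 overlapped too, at 2.29, 3.92 and 2.52 against 0.961, 2.62 and 2.17, with a log2 change of 0.45 ± 0.36 (adjusted p = 0.645). All 12 germinal centre B cell markers were above 0 in both groups. The summed level of these markers was lower in Fraction 2 (222 to 241) than in DZ (284 to 310), and that of 8 naive or memory B cell markers was higher (14.8 to 17.7 against 6.94 to 12.2), without overlap. Fcer2a (mean 7.16 against 2.03) and Cr2 (4.94 against 2.84) carried most of the latter rise. Klf2 (0.380 against 1.06), S1pr1 (0 against 0.674) and Ccr7 (0.0365 against 0.262) went the other way. Of 7 tested naive or memory markers 1 was called higher and 1 lower. Of the T cell markers 4 were tested, and 2 were called higher in Fraction 2. These were Lck, given with the T cell help genes below, and Lat, at 0.241, 0.346 and 0.328 against 0 in every DZ library (adjusted p = 0.0464), a call lost without any 1 of the 6 libraries (adjusted p 0.0787 to 0.140). The part of these sums in the results was not tested. Cd3d, Cd3e and Cd4 were at 0 in all 6 libraries, as were all 10 natural killer cell and neutrophil markers in the table, and the summed macrophage markers reached at most 0.219 in Fraction 2 and 0.961 in DZ. Fewer cells of a type and less RNA per cell cannot be told apart in such pooled libraries.

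The Fraction 2 libraries were larger. Their deposited totals averaged 40215 ± 1843 (SD, n = 3) against 32750 ± 2668 in DZ, a ratio of 1.23 (two-sided exact permutation p = 0.1, the smallest that 3 against 3 libraries can give). Divided by the constant of each library they stand for 350126 ± 16840 and 283096 ± 24507 molecules, and 10104 to 10132 genes were above 0 in Fraction 2 against 9682 to 9819 in DZ. Rn45s, a ribosomal RNA precursor, took 3.31% to 4.49% of the total in Fraction 2 and 6.17% to 8.42% in DZ. It was called lower at equal totals (-0.89 ± 0.12, adjusted p = 0.000104) and not on the deposited scale (-0.54, adjusted p = 0.108). The part of these differences in the results below was not tested.

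The 13 genes of a list of NF-kB and CD40 targets that were called higher in Fraction 2 were searched for letters of an NF-kB site. This list holds some of the genes with the largest rises, namely Nfkbia, Cd83, Bcl2a1b and Cd40. RefSeq promoters on GRCm38.p6 (mm10) give 8 of the 13 a single start, and 3 of these 8 hold the letters GGGA, any 4 bases and CC on either strand in the 250 bases before it. Upstream sequence outside annotated exons is shown for these 3, with the matching letters in capitals. Nfkbia (chr12:55492648-55492867, minus strand) encodes IkBa, the inhibitor that holds NF-kB in the cytoplasm. Birc3 (chr9:7873187-7873390, minus strand) encodes the ubiquitin ligase cIAP2 of the CD40 and TNF receptor pathways. Irf4 (chr13:30749013-30749225, plus strand) encodes a transcription factor of activated B cells and plasma cells.
Nfkbia: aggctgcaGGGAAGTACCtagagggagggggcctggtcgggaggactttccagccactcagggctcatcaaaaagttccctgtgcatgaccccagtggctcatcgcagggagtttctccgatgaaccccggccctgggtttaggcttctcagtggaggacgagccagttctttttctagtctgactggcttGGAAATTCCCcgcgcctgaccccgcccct
Birc3: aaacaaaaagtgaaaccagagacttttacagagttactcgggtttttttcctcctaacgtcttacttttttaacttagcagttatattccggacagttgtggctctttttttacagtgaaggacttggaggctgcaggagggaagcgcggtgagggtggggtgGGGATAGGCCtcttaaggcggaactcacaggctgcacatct
Irf4: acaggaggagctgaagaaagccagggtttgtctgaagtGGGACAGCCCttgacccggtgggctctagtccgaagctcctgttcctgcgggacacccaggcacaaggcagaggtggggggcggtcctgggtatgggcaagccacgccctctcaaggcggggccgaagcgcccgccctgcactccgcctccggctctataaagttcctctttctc

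The Nfkbia stretch holds 2 matches, and those of Birc3 and Irf4 hold 1 each. The same letters occurred in 21.9% of the tested genes with 1 start (1450 of 6609), in 21.3% of those called higher in Fraction 2 (26 of 122), in 23.9% of those called lower (26 of 109) and in 34.8% of the whole list (8 of 23). Among all 22862 promoters of the table the share was 17.0%. A match is a description of letters and not evidence of a bound site, and the shares of genes called higher and of all tested genes lay close together. The E-box letters CACGTG, which MYC can bind, occurred in 13.9% of the promoters of genes called higher (17 of 122), 8.26% of those called lower (9 of 109) and 8.73% of all tested ones (577 of 6609). In a list of MYC targets and ribosome biogenesis they occurred in 15.4% of the promoters (4 of 26). Among its members called higher the share was 10% (2 of 20), near that of all tested genes. Matches were counted per promoter on both strands for each pattern alone, whether or not they overlapped.

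Between DZ and Fraction 2, 186 genes were called higher in Fraction 2 (1.66% of the 11190 tested) and 206 lower (1.84%), together 3.5%, at an adjusted p under 0.05 from limma (fitted across all genes with Benjamini-Hochberg adjustment). Changes are differences of log2(level + 1) ± SE, a scale that understates the change of low genes. Of the called genes, 185 of 186 and 205 of 206 had no overlap between the 3 and 3 libraries, where 10.3% and 10.1% of all tested genes showed no overlap in the higher and in the lower direction. The called changes were moderate, with a median size of 0.81 among higher and 0.83 among lower genes, and 45 and 61 of them passed 2-fold on that scale. Over all tested genes the median change was 0.01. On the deposited scale, where the larger Fraction 2 totals enter, the median of all genes was 0.13 and the calls became 339 higher and 47 lower, so that 87.8% of the calls were higher against 47.4% at equal totals. Of the 392 genes called at equal totals, 220 were called on both scales, and 204 were called in a fit of the 6 libraries alone. Fewer genes passed without 1 library. Leaving out Fraction 2 replicate 1, 2 or 3 gave 93, 108 and 90 higher genes and 117, 130 and 118 lower ones. Leaving out DZ replicate 2 gave 88 and 123, and leaving out DZ replicate 3 gave 136 lower ones.

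**Figure D1:**
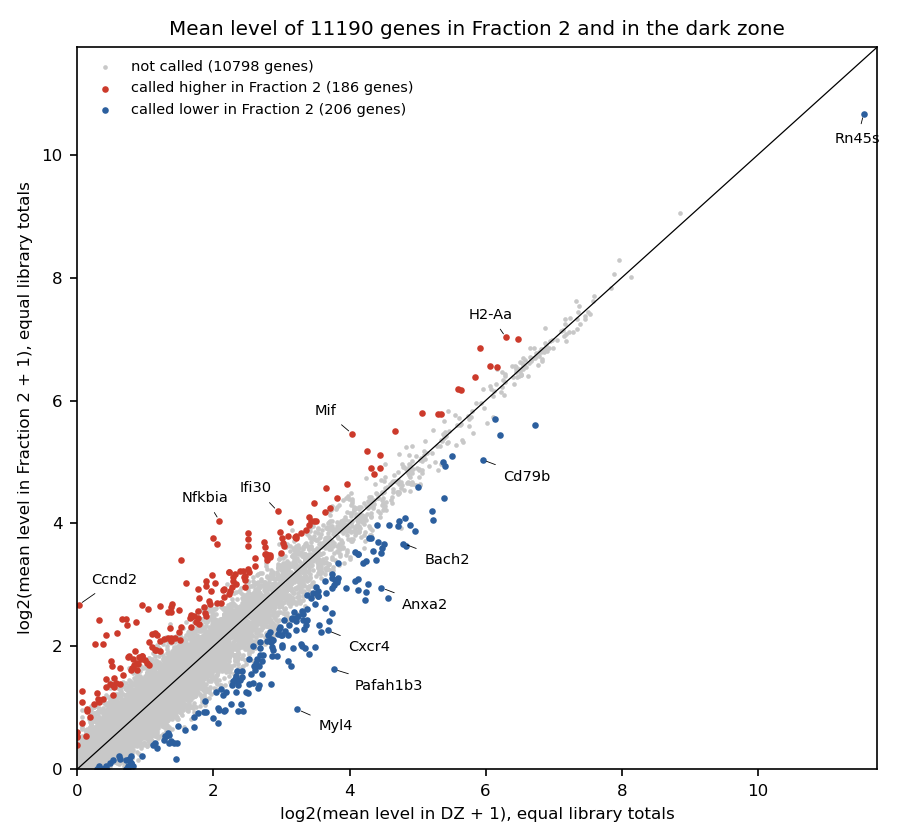
Mean level of each of 11190 tested genes in DZ (x axis) and in Fraction 2 (y axis), as log2(mean + 1) over 3 libraries at equal totals. Red points are the 186 genes called higher in Fraction 2, blue points the 206 called lower, grey points were not called, and the line marks equal levels. Ccnd2 lies near 0 on the DZ axis, and Rn45s is the blue point at the top right.

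Fraction 3 gave fewer calls against the same DZ libraries, with 64 higher genes (0.572%) and 54 lower genes (0.483%), 1.05% together. Since the 2 comparisons share DZ, the direct comparison of Fraction 2 with Fraction 3 is the test of whether a change from DZ differed between the light zone fractions. It called 77 genes (0.688%), 49 higher in Fraction 2 (0.438%) and 28 lower (0.25%). This smaller comparison depended more on the fit. Leaving out any 1 of its 6 libraries left 17 to 36 called genes, and a fit of its 6 libraries alone called 0, with 1414 genes at an unadjusted p under 0.05.

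Gene lists grouped the changes by function. The lists were drawn up with earlier results of these data known, so that their counts describe the comparison and are not independent evidence of a direction. Against a background of 1.66% called higher and 1.84% called lower, 3 lists stood out on the higher side by their counts. These were light zone activation with 18 of 33 tested members called higher, MYC targets and ribosome biogenesis with 29 of 43, and NF-kB and CD40 targets with 13 of 33. On the lower side it was the list of dark zone genes outside the cell cycle, with 12 of 22. Lists of replication and mitosis genes held next to no calls. Genes given below as examples of members that passed no test, and Ncl, Srm, C1qbp, Cad, Fbl, Nop58, Nfkb2, Marcksl1 and Lck among the called ones, were chosen after their values were seen.

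**Figure D2:**
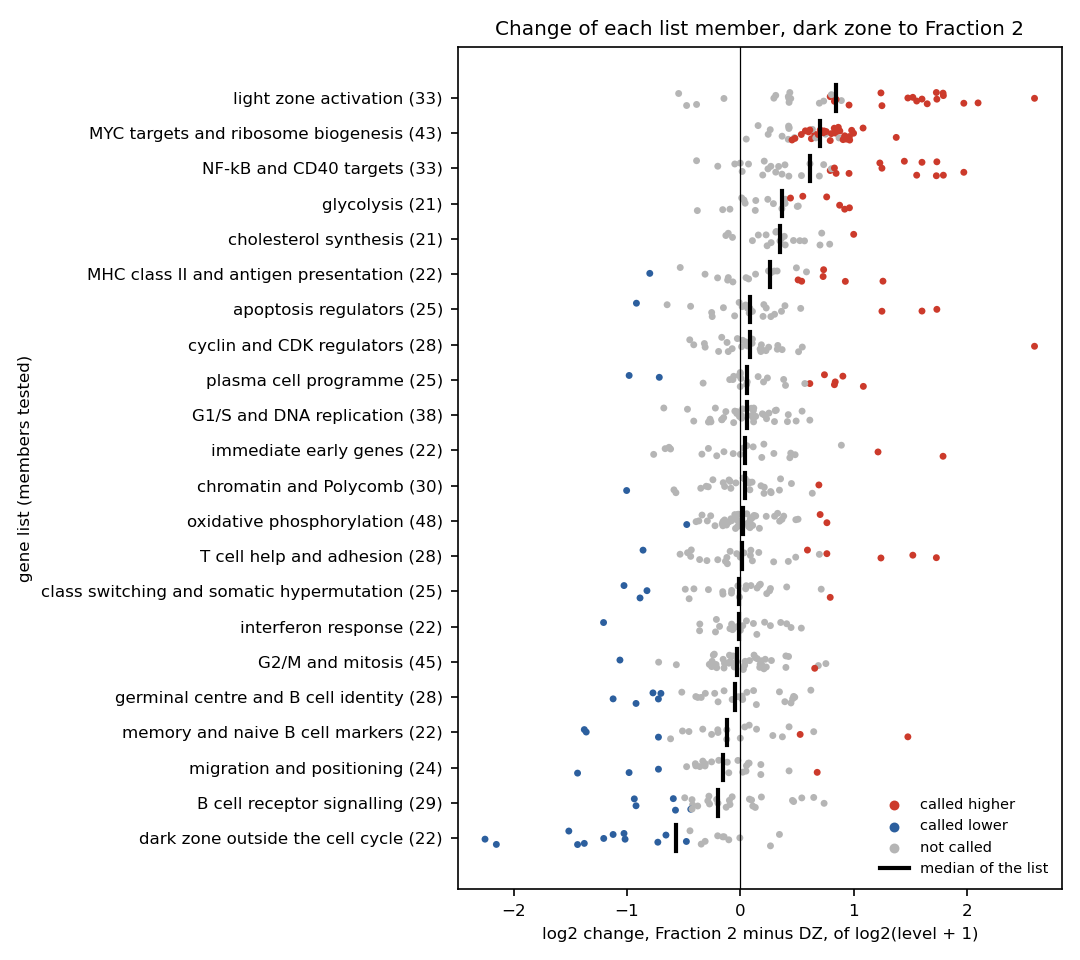
Change from DZ to Fraction 2 of every tested member of 22 gene lists, as a difference of log2(level + 1) at equal totals; list names on the y axis give the number of tested members. Red and blue points are members called higher and lower, grey points were not called, and black bars are list medians, which run from 0.85 for light zone activation to -0.57 for dark zone genes outside the cell cycle.

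Transcripts of some members of the CD40 and NF-kB pathway were higher in Fraction 2. In the light zone activation list 18 of 33 tested members rose and none fell, with a list median of 0.85 against 0.01 over all genes. In the NF-kB and CD40 list 13 of 33 rose and none fell, with a median of 0.62, and the NF-kB subunit genes Nfkb1, Rela and Rel were not called. The 2 lists share several genes. Cd40 itself (chromosome 2, 165055627 to 165072948), the receptor for T cell help, stood at 4.33, 5.07 and 3.83 in Fraction 2 and at 0.961, 0.690 and 0.289 in DZ. All 3 Fraction 2 libraries lay above every DZ library, with a log2 change of 1.73 ± 0.20 (adjusted p = 1.36e-05). Fraction 3 lay between them at 1.71 ± 0.247 (SD, n = 3) and below Fraction 2 (Fraction 2 minus Fraction 3 0.99 ± 0.20, adjusted p = 0.0224).

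Nfkbia (chromosome 12, 55489410 to 55492647), whose upstream letters are shown above, stood at 15.8, 17.6 and 13.1 in Fraction 2 and at 2.24, 3.45 and 4.05 in DZ. Its log2 change of 1.97 ± 0.31 (adjusted p = 0.000538) was among the largest, and the groups did not overlap. In Fraction 3 it averaged 8.30 ± 1.36, with no call against either DZ (1.14, adjusted p = 0.102) or Fraction 2 (0.83, adjusted p = 0.285). Bcl3, an atypical member of the same inhibitor family that acts in the nucleus, stood at 3.13, 3.23 and 4.27 against 0.480, 0.414 and 0.145. It rose by 1.75 ± 0.21 (adjusted p = 2.39e-05) and was also higher in Fraction 2 than in Fraction 3 (0.93, adjusted p = 0.0430). Birc3 stood at 5.54, 5.54 and 4.81 against 1.12, 1.10 and 1.74, a rise of 1.45 ± 0.16 (adjusted p = 1.04e-05). It, too, differed between the light zone fractions (0.97, adjusted p = 0.00446). Nfkb2, a subunit of the non-canonical NF-kB pathway, averaged 5.10 ± 1.49 against 1.06 ± 0.440 and rose by 1.56 ± 0.22 (adjusted p = 0.000142). Irf4 was low, at 0.963, 2.08 and 1.75 against 0.320, 0.414 and 0.579. Its rise of 0.83 ± 0.21 (adjusted p = 0.0320) was lost without any 1 library except Fraction 2 replicate 1 (adjusted p 0.0543 to 0.163). Rel and Tnfaip3 of the same lists passed no test, with changes of -0.39 (adjusted p = 0.555) and 0.80 (adjusted p = 0.345).

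The 3 listed copies of the survival gene Bcl2a1, which encode A1 proteins of the BCL-2 family on chromosome 9, were called higher. Bcl2a1b stood at 5.20, 6.05 and 4.91 in Fraction 2 and at 0.854, 1.22 and 0.699 in DZ, a change of 1.74 ± 0.19 (adjusted p = 1.04e-05). Bcl2a1d rose by 1.60 ± 0.20 (adjusted p = 3.05e-05) and Bcl2a1a by 1.25 ± 0.19 (adjusted p = 0.000363). Each was also higher in Fraction 2 than in Fraction 3, by 1.12, 1.13 and 0.90 in this order (adjusted p = 0.00560, 0.00742 and 0.0339). The copies are near-identical and their deposited values are mostly not whole multiples of the library constant, so that they are uncertain one by one. Taken as 1 member, they leave 16 of 31 light zone activation genes, 11 of 31 NF-kB and CD40 targets and 1 of 23 apoptosis regulators called higher. Among 25 tested apoptosis regulators they were the 3 called higher. The death activator Bcl2l11, chosen after its values were seen, was the 1 called lower, by 0.92 ± 0.21 on the log2 scale, from 3.85 ± 0.769 to 1.57 ± 0.450 (adjusted p = 0.0149). That call was lost without Fraction 2 replicate 1 or 3 or DZ replicate 2 (adjusted p 0.0668 to 0.0993) and on the deposited scale (-0.65, adjusted p = 0.159).

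Other genes had changes of like size. Batf (chromosome 12, 85686669 to 85709087), an AP-1 family transcription factor, stood at 4.33, 3.57 and 5.25 in Fraction 2 and at 0.320, 0.138 and 0.289 in DZ. Its DZ values amount to 1 or 2 molecules per library, and the change was 2.10 ± 0.20 (adjusted p = 2.11e-06). Fraction 3 held 0.848 ± 0.400, no call against DZ, and Batf was higher in Fraction 2 than in Fraction 3 by 1.56 ± 0.20 (adjusted p = 0.000442). Fscn1, which bundles actin filaments, followed the same order at 3.10 ± 0.608 in Fraction 2, 0.837 ± 0.241 in Fraction 3 and 0.303 ± 0.172 in DZ. It rose from DZ by 1.65 ± 0.18 (adjusted p = 1.16e-05) and from Fraction 3 by 1.16 ± 0.18 (adjusted p = 0.00378). Gatm, which makes the precursor of creatine, stood at 8.55, 10.7 and 9.52 against 2.24, 1.66 and 1.74 in DZ, a rise of 1.88 ± 0.17 (adjusted p = 2.11e-06). In Fraction 3 it was higher than in DZ (1.07, adjusted p = 0.00273) and lower than in Fraction 2 (0.81, adjusted p = 0.0320).

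Some of the genes with large rises had no detectable difference between the light zone fractions. Cd83, which stabilizes MHC class II and CD86 at the surface, stood at 13.4, 11.8 and 12.5 in Fraction 2, at 12.0 ± 0.795 in Fraction 3 and at 2.24, 2.62 and 4.05 in DZ. It rose by 1.79 ± 0.24 in Fraction 2 (adjusted p = 7.21e-05) and by 1.74 in Fraction 3 (adjusted p = 0.00107), and the fractions differed by 0.06 ± 0.24 (adjusted p = 0.979). Snn rose by 1.75 ± 0.20 (adjusted p = 1.46e-05) and 1.49 (adjusted p = 0.00107). Il4i1, an amino acid oxidase that B cells secrete, averaged 3.63 ± 0.578 and 3.45 ± 1.96 in the light zone fractions and 0.492 ± 0.340 in DZ. It rose by 1.65 ± 0.26 (adjusted p = 0.000563) and 1.51 (adjusted p = 0.00475), and many of its values are not whole multiples and so uncertain. Marcksl1, a member of the NF-kB and CD40 list, was at 12.4 ± 0.405 and 12.6 ± 3.13 against 4.72 ± 0.539 in DZ.

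**Figure D3:**
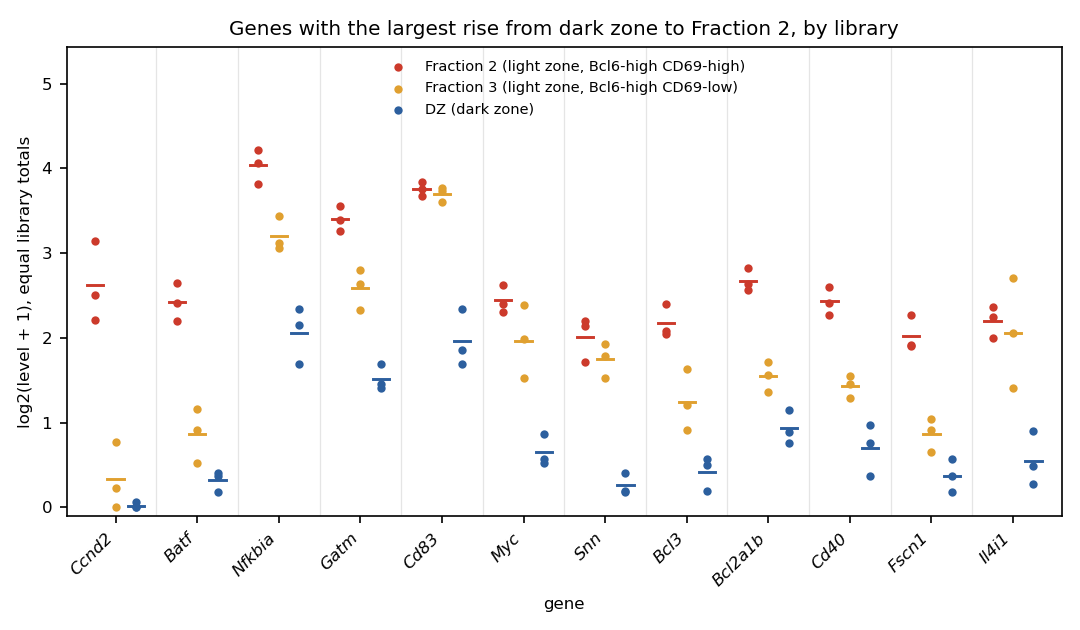
Level of the 12 genes with the largest rise from DZ to Fraction 2 in each of 3 libraries of Fraction 2 (red), Fraction 3 (amber) and DZ (blue), as log2(level + 1) at equal totals; bars are means. By the choice of the genes, all red points lie above all blue points of the same gene. The amber points of Ccnd2, Batf and Fscn1 lie near the blue ones while those of Cd83 lie near the red ones.

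Myc (chromosome 15, 61985391 to 61990374) stood at 5.18, 4.27 and 3.94 in Fraction 2 and at 0.480, 0.828 and 0.434 in DZ. The groups did not overlap, and the change was 1.79 ± 0.23 (adjusted p = 4.32e-05). Fraction 3 was also above DZ, at 3.03 ± 1.17 (1.32, adjusted p = 0.00452), and its difference from Fraction 2 did not pass (0.47 ± 0.23, adjusted p = 0.441). The list of immediate early genes, which are transcribed within minutes of a signal, held few calls. Of 22 tested members 2 rose, Myc and the AP-1 subunit Junb, and the median was 0.04. Junb stood at 7.58, 6.57 and 7.99 against 1.60, 2.76 and 3.76, a rise of 1.22 ± 0.24 (adjusted p = 0.00417) that was not called in a fit of the 6 libraries alone. Egr1, a marker of recent antigen receptor signals, stood at 3.49, 4.15 and 3.83 against 2.40, 3.59 and 1.88, which overlapped, and passed no test (0.44 ± 0.30, adjusted p = 0.562). Fos was at 6.84 ± 1.75 against 8.44 ± 1.24 (-0.28, adjusted p = 0.667).

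Genes of ribosome building, translation and nucleotide supply, many of them known MYC targets, were higher in Fraction 2 as a group. Of the 43 tested members of this list 29 rose and none fell, all 43 had a positive change, and the median was 0.71. In Fraction 3 against DZ, 1 of the same 43 rose and the median was 0.11, and in the direct comparison 11 were higher in Fraction 2 than in Fraction 3. Ncl, the nucleolar protein nucleolin, stood at 46.2, 44.2 and 42.6 in Fraction 2 and at 24.2, 22.8 and 26.7 in DZ. Its change was 0.83 ± 0.14 (adjusted p = 0.00113), and Fraction 3 at 23.9 was not above DZ (-0.05, adjusted p = 0.957) and below Fraction 2 (0.88, adjusted p = 0.00386). Eif5a, a translation factor, stood at 55.4, 51.9 and 56.7 against 33.6, 31.9 and 31.8, a rise of 0.73 ± 0.10 (adjusted p = 0.000142). It differed between the light zone fractions as well (0.64 ± 0.10, adjusted p = 0.00378).

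Srm, the enzyme that makes spermidine, stood at 5.90, 5.30 and 5.03 in Fraction 2 and at 2.72, 0.552 and 1.59 in DZ, the largest change of the list at 1.38 ± 0.24 (adjusted p = 0.00123; 0.0930 in a fit of the 6 libraries alone). Hspe1, a mitochondrial chaperone, stood at 22.9, 21.3 and 24.2 against 12.3, 10.2 and 12.2, a rise of 0.92 ± 0.15 (adjusted p = 0.000644). Both were higher in Fraction 2 than in Fraction 3, by 1.07 (adjusted p = 0.0379) and 0.76 (adjusted p = 0.0211). C1qbp, Cad, Fbl and Nop58 rose by 0.96, 1.00, 0.84 and 0.88, with adjusted p of 0.000725, 0.00217, 0.00804 and 0.000725. The last 2 belong to the complex that modifies ribosomal RNA. Several members passed narrowly. The count of 29 was 16, 17 and 16 without Fraction 2 replicate 1, 2 or 3, 14 without DZ replicate 2 and 19 without DZ replicate 3, with no member called lower in any of these fits, and it was 14 in a fit of the 6 libraries alone. Rn45s was lower in Fraction 2 at equal totals and not called on the deposited scale, as given above. The libraries were made from poly(A) RNA, and whether this level follows the ribosomal RNA precursor in the cells was not tested.

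**Figure D4:**
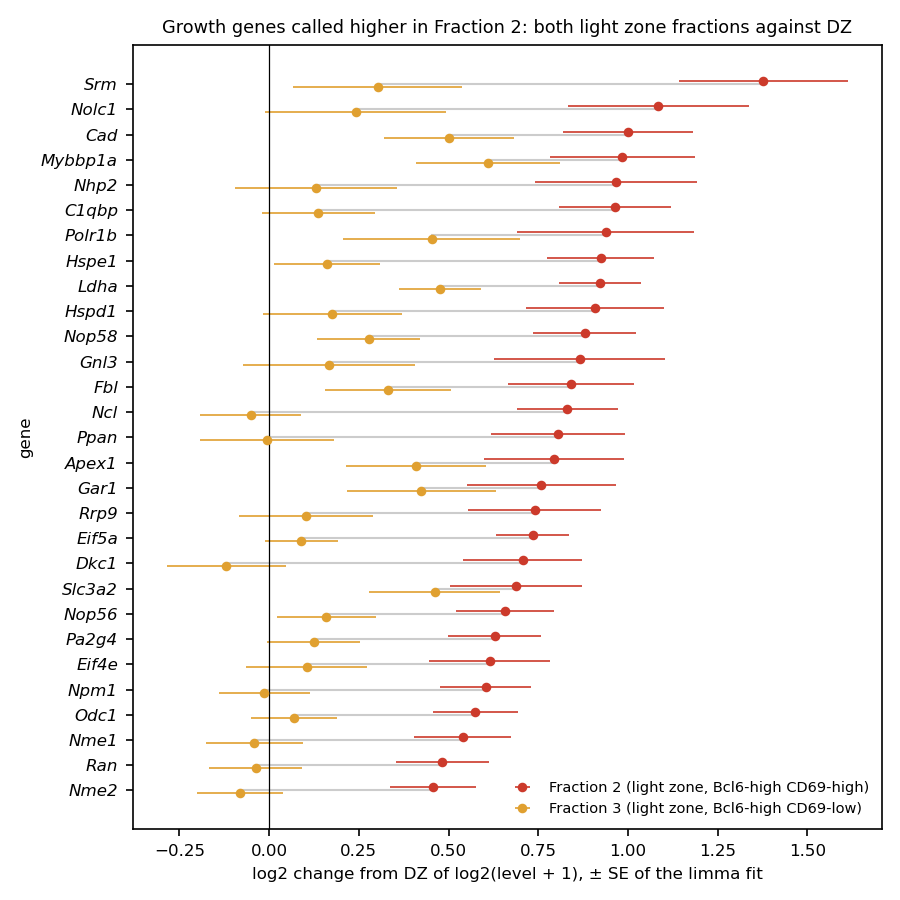
Change from DZ, as a difference of log2(level + 1) ± SE of the limma fit, of the 29 MYC target and ribosome biogenesis genes called higher in Fraction 2, for Fraction 2 (red) and Fraction 3 (amber). The red points run from 0.46 (Nme2) to 1.38 (Srm) by the choice of the genes, and this choice favours larger red than amber values. The amber points, measured in other light zone libraries against the same DZ libraries, have smaller values in all 29 genes. The direct comparison called 11 of the 43 tested list members higher in Fraction 2 than in Fraction 3.

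Metabolic lists held fewer calls. Of 21 tested glycolysis genes 6 rose and none fell, with a median of 0.37. Ldha, which converts pyruvate to lactate, stood at 35.0, 32.9 and 38.0 in Fraction 2 and at 19.5, 16.8 and 18.1 in DZ, a change of 0.92 ± 0.11 (adjusted p = 3.46e-05). Tpi1 rose from 6.86 ± 0.0923 to 13.5 ± 1.20 (0.88 ± 0.17, adjusted p = 0.00323). The other 4 were Pfkp, Pfkl, Aldoa and Pkm, and the list count fell to 3 without Fraction 2 replicate 1 and to 2 without Fraction 2 replicate 3. Neither Hk2 (0.50, adjusted p = 0.295) nor the glucose transporter Slc2a1 (0.14, adjusted p = 0.883) passed. Of 48 oxidative phosphorylation genes 2 rose and 1 fell, with a median of 0.02. The ATP synthase subunit Atp5g1 averaged 12.6 ± 1.14 against 7.02 ± 1.21 (0.77 ± 0.15, adjusted p = 0.00372) and was higher than in Fraction 3 (0.63, adjusted p = 0.0493). Cytochrome c, Cycs, rose by 0.71 ± 0.12 (adjusted p = 0.000954), with values that are mostly not whole multiples. Sdhb fell by 0.47 on the log2 scale (adjusted p = 0.0437), a call that was lost without any 1 library except DZ replicate 2 (adjusted p 0.0767 to 0.167) and on the deposited scale (-0.15).

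Of 21 cholesterol synthesis genes 1 rose, Idi1, an isomerase of the isoprenoid pathway, with a list median of 0.35. Idi1 stood at 4.82, 6.69 and 6.24 in Fraction 2, at 5.84 ± 0.721 in Fraction 3 and at 2.72, 2.76 and 1.88 in DZ. The changes were 1.00 ± 0.18 (adjusted p = 0.00217) and 0.99 (adjusted p = 0.00718).

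Few cell cycle genes were called between the zones in these libraries, and Ccnd2 had the largest change. Ccnd2 (chromosome 6, 127125162 to 127152193) encodes cyclin D2, which couples growth signals to entry into S phase. It stood at 4.70, 7.84 and 3.61 in the Fraction 2 libraries and at 0, 0.0455 and 0 in DZ, where the single value above 0 is less than 1 molecule. It had the largest change of all tested genes, 2.60 ± 0.22 (adjusted p = 1.92e-06), and this value depends on the pseudocount because DZ was at or next to 0 (1.83 to 5.89 over the alternatives, called in each). Fraction 3 held 0.293 ± 0.367, no call against DZ (adjusted p = 0.705), and Ccnd2 was higher in Fraction 2 than in Fraction 3 by 2.29 ± 0.22 (adjusted p = 1.82e-05). It was the 1 called gene among 28 tested cyclins, CDKs and their inhibitors, whose median was 0.08. Ccnd3, the cyclin D known for dark zone division, stood at 17.8, 18.7 and 16.4 against 25.6, 20.4 and 20.5 and passed no test (-0.31 ± 0.15, adjusted p = 0.343).

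Of 38 tested genes of the G1/S transition and DNA replication none was called in either direction, and their median was 0.06. On the deposited scale the count was again 0, and a fit with precision weights called 1 lower. Mcm5, a subunit of the replicative helicase, stood at 12.6 ± 1.33 in Fraction 2 and 11.6 ± 1.89 in DZ (0.12 ± 0.21, adjusted p = 0.881). Pcna, the replication clamp, was at 27.5 ± 2.35 and 25.3 ± 1.93 (0.12 ± 0.24, adjusted p = 0.898). Of 45 G2/M and mitosis genes 1 rose and 1 fell, with a median of -0.03. The proliferation antigen Mki67 stood at 32.3, 30.7 and 30.1 against 41.2, 40.7 and 30.2, which overlapped (-0.25 ± 0.15, adjusted p = 0.487). Ccnb1 was at 5.74 ± 1.32 and 5.02 ± 1.86 (0.20 ± 0.26, adjusted p = 0.827). The 1 that fell was the mitotic phosphatase Cdc25b, which stood at 3.73, 4.15 and 3.61 against 10.1, 8.83 and 8.39 (-1.06 ± 0.19, adjusted p = 0.00152). It was lower in Fraction 3 too (-0.80, adjusted p = 0.0369), and on the deposited scale its change of -0.76 did not pass (adjusted p = 0.105). The 1 that rose was the checkpoint kinase Bub1b (0.66 ± 0.17, adjusted p = 0.0370), a call lost without any 1 of the 6 libraries (adjusted p 0.0619 to 0.181). These misses do not show that the zones divide alike.

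In the list of antigen presentation genes 6 of 22 tested members rose and 1 fell, with a median of 0.26, and in Fraction 3 against DZ 7 rose with a median of 0.38. None was called between the 2 light zone fractions. The MHC class II chains H2-Aa and H2-Ab1 lie near each other on chromosome 17. H2-Aa stood at 129, 134 and 126 in Fraction 2, at 130 ± 14.3 in Fraction 3 and at 70.1, 79.5 and 83.2 in DZ, a change of 0.74 ± 0.12 (adjusted p = 0.000563). H2-Ab1 stood at 86.3, 77.0 and 84.4 against 50.6, 59.2 and 59.6, a change of 0.54 ± 0.10 (adjusted p = 0.00255). Ifi30, a lysosomal reductase that opens antigens for presentation, had the largest change of the list at 1.26 ± 0.12 (adjusted p = 2.11e-06), from 5.93, 6.76 and 7.38 in DZ to 17.9, 17.6 and 16.5. In Fraction 3 it rose by 1.03 (adjusted p = 0.000175). The class II transactivator Ciita stood at 8.43, 9.69 and 8.64 against 3.36, 6.49 and 5.50 (0.73 ± 0.19, adjusted p = 0.0379), which was lost without any 1 library except DZ replicate 2 (adjusted p 0.0662 to 0.206). The number of members called higher was 3 without Fraction 2 replicate 2. The 1 that fell was the ubiquitin ligase gene March1 (-0.80 ± 0.20, adjusted p = 0.0260), a call lost without any 1 library except DZ replicate 1 (adjusted p 0.0795 to 0.130). The invariant chain Cd74 passed in Fraction 3 (0.69, adjusted p = 0.00718) and not in Fraction 2 (0.33, adjusted p = 0.208), and the direct difference did not pass either (-0.37, adjusted p = 0.241).

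Among 28 tested genes of T cell help and adhesion 5 rose and 1 fell, with a median of 0.02. Besides Cd40 and the sort marker Cd86, whose call was lost in a fit of the 6 libraries alone, these included Slamf1, an adhesion receptor shared by B and T cells, at 4.21, 4.96 and 3.61 in Fraction 2 against 0.641, 0.966 and 0.868 in DZ. Its change was 1.52 ± 0.19 (adjusted p = 3.39e-05), with 1.16 in Fraction 3 (adjusted p = 0.00291). The other calls were the cytokine receptor chain Il2rg and the integrin Itgb1 on the higher side and Slamf7 on the lower, and the call of Slamf7 was lost without Fraction 2 replicate 3 or DZ replicate 2 or 3 (adjusted p 0.0644 to 0.111). That of Il2rg was lost without any 1 library except DZ replicate 3 (0.0577 to 0.129), and that of Itgb1 without any 1 of the 6 (0.0827 to 0.221). The number called higher was 3 without any 1 of the 3 Fraction 2 libraries and without DZ replicate 1 or 2. Icosl, the ligand of a helper T cell receptor, was at 1.22 ± 0.483 and 1.23 ± 0.181 (-0.03, adjusted p = 0.986). The summed T cell markers ran from 5.09 to 6.23 in Fraction 2 and from 1.74 to 2.24 in DZ. Of 14 such markers in the table, Lck carried most of the sum, at 4.70, 5.77 and 4.60 against 2.24, 1.93 and 1.30 (1.10 ± 0.22, adjusted p = 0.00635), while 7 were at 0 in every one of the 6 libraries.

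Some members of the list of dark zone genes outside the cell cycle were lower in Fraction 2. The list was drawn up with earlier results of these data known, so that these falls are not independent evidence. Polh, Mybl1, Rgs13 and Ccnd3 were among the members not called. Of 22 tested members 12 fell and none rose, with a median of -0.57, and on the deposited scale 7 fell and none rose. In Fraction 3 against DZ 6 fell. Cxcr4, the receptor that draws cells to the dark zone, is in this list and was used in the sort (-1.44 ± 0.17, adjusted p = 2.51e-05). Myl4 (chromosome 11, 104550663 to 104595753), a myosin light chain, stood at 0.963, 1.15 and 0.766 in Fraction 2 and at 9.61, 8.97 and 6.65 in DZ. No other tested gene fell as far, and it decreased by 2.25 ± 0.21 on the log2 scale (adjusted p = 2.11e-06). It averaged 2.69 ± 0.830 in Fraction 3, lower than DZ (-1.36, adjusted p = 0.00272) and with a difference from Fraction 2 that did not pass (-0.89 ± 0.21, adjusted p = 0.0552). Pafah1b3 (chromosome 7, 25295049 to 25297986), a subunit of an enzyme that inactivates platelet activating factor, stood at 2.41, 2.42 and 1.42 against 13.0, 14.2 and 10.7 (-2.15 ± 0.24, adjusted p = 1.23e-05). Lmo4, a LIM domain adaptor of transcription complexes, stood at 2.77, 2.65 and 2.63 against 7.85, 11.5 and 9.55 (-1.51 ± 0.19, adjusted p = 3.50e-05).

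Transcription factors of the list followed. Foxp1 stood at 3.25, 3.11 and 2.41 in Fraction 2 and at 8.97, 9.66 and 8.82 in DZ, a change of -1.38 ± 0.20 (adjusted p = 0.000212) with -0.96 in Fraction 3 (adjusted p = 0.0172). Bach2 (chromosome 4, 32238804 to 32586108), which represses plasma cell genes, stood at 11.9, 10.7 and 12.6 in Fraction 2, at 23.9 ± 0.647 in Fraction 3 and at 25.6, 27.7 and 26.8 in DZ. It fell by 1.12 ± 0.12 on the log2 scale (adjusted p = 1.16e-05). In Fraction 3 it was not called against DZ (-0.15, adjusted p = 0.759), and it was lower in Fraction 2 than in Fraction 3 (-0.97 ± 0.12, adjusted p = 0.000442). Foxo1, which upholds the dark zone state, was at 8.79, 7.73 and 6.46 against 13.8, 12.3 and 13.7 (-0.73 ± 0.18, adjusted p = 0.0218). Tcf3, which encodes the E2A proteins, was at 7.59 ± 1.51 against 12.4 ± 0.470 (-0.66 ± 0.16, adjusted p = 0.0186). The call of Foxo1 was lost without any 1 library except Fraction 2 replicate 1 (adjusted p 0.0539 to 0.131), that of Tcf3 without Fraction 2 replicate 2 or 3 or DZ replicate 1 or 2 (0.0661 to 0.131), and both on the deposited scale (-0.41 and -0.34).

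Other genes with the largest falls came from outside this list. Anxa2, a membrane-binding annexin, stood at 5.54, 8.30 and 6.35 in Fraction 2 and at 20.2, 23.2 and 20.1 in DZ (-1.53 ± 0.16, adjusted p = 1.04e-05). Aff4, a scaffold of the super elongation complex, stood at 2.53, 3.69 and 2.74 against 9.45, 8.97 and 12.4 (-1.50 ± 0.17, adjusted p = 1.46e-05). 8430410A17Rik, which the annotation used did not place, stood at 5.90, 5.54 and 6.35 against 23.2, 25.4 and 19.5 (-1.77 ± 0.18, adjusted p = 3.64e-06). It was one of the genes that also differed between the light zone fractions (-0.998, adjusted p = 0.00837). Rgcc, a regulator of the cell cycle kinase CDK1, averaged 0.921 ± 0.402 against 4.15 ± 0.727 (-1.43 ± 0.20, adjusted p = 0.000163), and the bromodomain gene Brwd1 2.21 ± 0.459 against 7.80 ± 0.752 (-1.46 ± 0.26, adjusted p = 0.00163). Eif2ak3, the endoplasmic reticulum stress kinase PERK, stood at 2.29, 1.15 and 1.42 against 7.21, 5.52 and 5.79 (-1.47 ± 0.30, adjusted p = 0.00681), and did not pass on the deposited scale (-1.18, adjusted p = 0.0623). Mprip, which binds myosin phosphatase, fell by 1.47 ± 0.18 on the log2 scale (adjusted p = 3.85e-05), with no value a whole multiple.

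**Figure D5:**
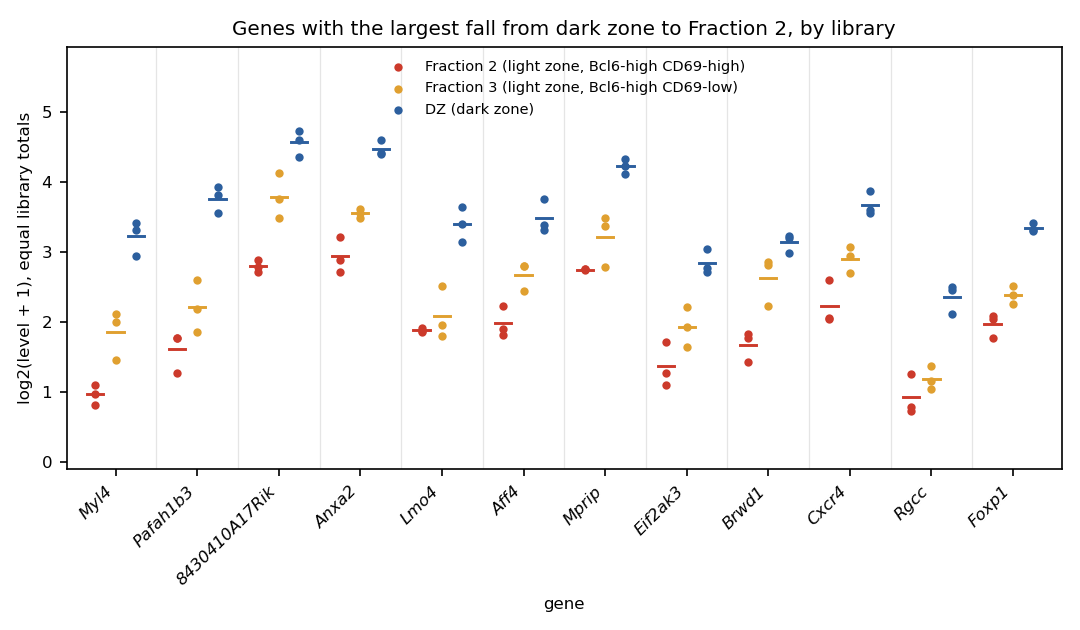
Level of the 12 genes with the largest fall from DZ to Fraction 2 in each of 3 libraries of Fraction 2 (red), Fraction 3 (amber) and DZ (blue), as log2(level + 1) at equal totals; bars are means. By the choice of the genes, all red points lie below all blue points of the same gene. Each Fraction 3 mean lies between those of Fraction 2 and DZ.

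Antigen receptor and B cell identity genes split. Of 28 tested identity genes 5 fell and none rose at equal totals, while on the deposited scale 2 fell and 5 rose. At equal totals a fit of the 6 libraries alone called 2 higher, and precision weights called 4 higher. Of 29 tested receptor signalling genes 5 fell and none rose at equal totals, while on the deposited scale 1 fell and 4 rose. Cd79b, a signalling chain of the antigen receptor, stood at 32.6, 32.4 and 30.3 in Fraction 2, at 52.5 ± 5.33 in Fraction 3 and at 59.6, 58.9 and 64.7 in DZ. It fell by 0.92 ± 0.10 on the log2 scale (adjusted p = 7.24e-06, and by 0.58 as deposited) and was also lower than in Fraction 3 (-0.70, adjusted p = 0.000881). Its partner Cd79a was at 48.9 ± 6.02 against 63.6 ± 5.87 and passed no test (-0.38 ± 0.16, adjusted p = 0.279). Pou2af1, a coactivator of immunoglobulin genes, stood at 40.5, 41.6 and 44.4 against 78.5, 70.5 and 69.1 (-0.77 ± 0.10, adjusted p = 6.95e-05; -0.43 and adjusted p = 0.129 as deposited).

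The other identity genes called lower were Bach2, Ets1 and Spib. Spib, an ETS family factor, averaged 15.4 ± 2.22 against 25.4 ± 0.599 (-0.70 ± 0.16, adjusted p = 0.0141). Ets1, chosen after its values were seen, averaged 11.9 ± 1.61 against 20.3 ± 1.56 (-0.72 ± 0.16, adjusted p = 0.0130). The list count was 3 without Fraction 2 replicate 1 or DZ replicate 2. Spib did not pass without Fraction 2 replicate 1 or 3 or DZ replicate 1 or 2 (adjusted p 0.0513 to 0.101), nor Ets1 without Fraction 2 replicate 1 or 2 or DZ replicate 2 (0.0641 to 0.0752). In the signalling list the kinases Syk and Lyn and the adaptors Dok3 and Blnk fell besides Cd79b. Syk stood at 13.97, 16.03 and 14.3 against 19.5, 24.7 and 24.3 (-0.59 ± 0.14, adjusted p = 0.0177). Leaving out Fraction 2 replicate 1, 2 or 3 left 2, 3 and 2 of these 5, and leaving out DZ replicate 1, 2 or 3 left 3, 3 and 1. Ms4a1 and Ptprc, surface proteins of all these cells, had changes of 0.02 (adjusted p = 0.984) and 0.12 (adjusted p = 0.713).

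Of 25 tested genes of class switching and somatic hypermutation 3 fell and 1 rose, with a median of -0.01. Apobec1, an RNA editing deaminase, fell by 0.82 ± 0.19 on the log2 scale (adjusted p = 0.0138), a call lost without Fraction 2 replicate 1 or 3 or DZ replicate 1 (adjusted p 0.0626 to 0.105). The end-joining ligase Lig4, chosen after its values were seen, fell by 0.89 ± 0.24 (adjusted p = 0.0398), a call lost without any 1 of the 6 libraries (adjusted p 0.0592 to 0.206). Apex1, a base excision enzyme also counted with the MYC targets, rose by 0.79 ± 0.20 (adjusted p = 0.0242), a call lost without Fraction 2 replicate 1 or 2 or DZ replicate 1 or 2 (adjusted p 0.0716 to 0.128). Without Fraction 2 replicate 1 or 3 or DZ replicate 1 the number that fell was 1. The uracil glycosylase Ung was at 2.40 ± 0.412 against 1.82 ± 0.268 (0.27, adjusted p = 0.612).

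Among 24 tested migration genes 3 fell and 1 rose, with a median of -0.15. Besides Cxcr4 these were receptors of sphingosine 1-phosphate, a lipid that guides lymphocytes out of tissue. S1pr4 stood at 0.241, 0.346 and 0.438 in Fraction 2 and at 1.60, 1.24 and 2.17 in DZ (-0.98 ± 0.18, adjusted p = 0.00284; -0.77 and adjusted p = 0.0717 as deposited), and was not called in a fit of the 6 libraries alone. S1pr1 was at 0 in all 3 Fraction 2 libraries and at 0.320, 0.690 and 1.01 in DZ (adjusted p = 0.01998), a call lost without any 1 library except DZ replicate 1 (adjusted p 0.0743 to 0.108). S1pr3, chosen after its values were seen, rose by 0.68 ± 0.18 (adjusted p = 0.0359), a call lost without any 1 of the 6 libraries (adjusted p 0.0627 to 0.147). S1pr2, which confines cells to the germinal centre, stood at 11.7, 10.03 and 10.9 against 15.1, 14.1 and 14.6 and passed no test (-0.39 ± 0.19, adjusted p = 0.347). Cxcr5, the receptor for the follicle chemokine, was at 5.26 ± 0.854 against 4.75 ± 2.05 (0.18, adjusted p = 0.798).

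Plasma cell genes moved in opposite directions. Of 25 tested members 6 rose and 2 fell, with a median of 0.06. Those that rose were chaperones and quality control genes of the endoplasmic reticulum and Irf4. Hspa5, the chaperone BiP, stood at 24.3, 15.9 and 17.5 in Fraction 2 and at 10.7, 8.97 and 10.8 in DZ (0.84 ± 0.13, adjusted p = 0.000392), and also rose in Fraction 3 (0.69, adjusted p = 0.00773). The call of Hspa5 was lost in a fit of the 6 libraries alone, in which 0 members were called higher. Without Fraction 2 replicate 3 the number higher was 3 and without DZ replicate 2 it was 2. Those that fell were Igj, the joining chain of secreted antibody, and Mzb1, a chaperone of antibody assembly. Igj stood at 19.1, 19.5 and 22.2 against 42.1, 39.1 and 41.7 (-0.98 ± 0.14, adjusted p = 0.000212), a call lost with precision weights. Mzb1 stood at 15.2, 17.5 and 15.5 against 24.98, 29.5 and 26.6 (-0.71 ± 0.10, adjusted p = 0.000163; -0.38 and adjusted p = 0.0921 as deposited). These 2 made up most of the summed plasma cell markers, which ran from 43.0 to 48.1 in Fraction 2 and from 73.0 to 75.9 in DZ, while Sdc1 and Tnfrsf17 of the same markers were at 0 in all 6 libraries. Prdm1, which encodes a transcriptional repressor that drives plasma cell fate, was above 0 in 1 library of each group, at 0.120 and 0.145, or 1 molecule. Xbp1 was at 5.56 ± 1.55 and 5.21 ± 0.925 (0.06, adjusted p = 0.945).

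In the list of memory and naive B cell markers 2 of 22 tested members rose and 3 fell, with a median of -0.12. Fcer2a, the low affinity IgE receptor CD23, stood at 6.10, 7.49 and 7.89 in Fraction 2, at 8.20 ± 2.54 in Fraction 3 and at 1.01, 2.04 and 3.04 in DZ. The changes were 1.48 ± 0.27 (adjusted p = 0.00255) and 1.62 (adjusted p = 0.00395), with values that are mostly not whole multiples. The call in Fraction 2 was lost in a fit of the 6 libraries alone. Vim, the intermediate filament vimentin, stood at 4.45, 3.57 and 3.06 against 10.4, 12.0 and 10.6 (-1.36 ± 0.20, adjusted p = 0.000264). The others were Il9r, Foxp1 and S1pr1, and Il9r, at 2 to 6 molecules in Fraction 2 and none in DZ, was lost without Fraction 2 replicate 2 or 3 or DZ replicate 2 or 3 (adjusted p 0.0504 to 0.0913), which left Fcer2a as the 1 called higher. Cd38, low by the gate, was at 1.00 ± 0.206 and 0.557 ± 0.281 (0.37, adjusted p = 0.414).

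Chromatin and interferon genes held few calls. Of 30 tested chromatin and Polycomb genes 1 rose and 1 fell, with a median of 0.04. Mtf2, an accessory subunit that brings the Polycomb complex PRC2 to DNA, stood at 8.07, 10.03 and 10.5 in Fraction 2 and at 21.6, 20.1 and 18.4 in DZ (-1.003 ± 0.15, adjusted p = 0.000251), and fell in Fraction 3 as well (-0.63, adjusted p = 0.0419). Aebp2, another PRC2 subunit, was at 3.41 ± 0.451 against 1.72 ± 0.0550 (0.69 ± 0.19, adjusted p = 0.0421), a call lost without any 1 of the 6 libraries (adjusted p 0.0857 to 0.171). The PRC2 enzyme Ezh2 stood at 11.1, 11.6 and 10.6 against 9.13, 7.31 and 9.26 and passed no test (0.35 ± 0.18, adjusted p = 0.412). Of 22 tested interferon response genes 1 fell, Ifi27l2a, at 12.2, 12.1 and 9.74 against 26.6, 30.2 and 25.5 (-1.21 ± 0.14, adjusted p = 1.58e-05). It was lower in Fraction 2 than in Fraction 3 as well (-0.75, adjusted p = 0.0148), and a part of its values are not whole multiples.

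Of 22 regulators chosen for their roles in the germinal centre, 7 rose and 5 fell, and 10 passed no test. Those 10 include Bcl6, Prdm1, Ccnd3, S1pr2, Ezh2 and Xbp1, given above. Mef2b, which drives Bcl6 transcription, stood at 19.0, 21.1 and 22.2 in Fraction 2 and at 13.6, 13.0 and 17.5 in DZ without overlap (0.48 ± 0.17, adjusted p = 0.135), and passed on the deposited scale (0.80, adjusted p = 0.0234) and with precision weights. Irf8, a factor of germinal centre B cells, stood at 33.5, 34.0 and 34.0 against 23.5, 26.1 and 27.0 without overlap (0.39 ± 0.21, adjusted p = 0.401), and passed in a fit of the 6 libraries alone and with precision weights. Ebf1 was at 1.87 ± 0.500 and 1.97 ± 0.892 (-0.02, adjusted p = 0.997). Pax5 was near 0 in both groups, at most 0.231.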

How the data were processed

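Gene expression was measured by sequencing poly(A) RNA of 100 sorted cells per library, with ERCC spike-in RNA and molecular barcodes added, per the labels' protocols. Reads were handled with TopHat2 on mm10, per the submitters' processing notes; the counting step is not given in the sources used here. The deposited values are a signal per gene: in each library 91.0% to 92.6% of the values above 0 were whole multiples (tolerance 0.02) of 1 constant, taken here as 1 molecule, whose meaning is not stated. Where the other values come from was not tested, and genes with many of them are called uncertain.

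Each library was scaled to a total of 38594.1 without Rn45s, and log2(level + 1) of genes above 0 in at least 3 of 15 libraries (11190 of 23420) was fitted with limma 3.58.1 (R 4.3.3, intensity trend) over all 5 groups. Fold changes on this scale understate those of low genes. Benjamini-Hochberg adjusted p under 0.05 over all tested genes makes a call, and every adjusted p in the text is from limma. Scripts were tested on simulated data.

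Named genes were the 12 higher and 12 lower with the largest changes among calls without overlap and at or above the median level, up to 3 called members per list by smallest p, and chosen sort markers and regulators. The members and lists were chosen with earlier results of these data known. Positions are from GENCODE M21 on mm10 for 78 of 80 named genes. Alternatives were other scalings, pseudocounts, filters, libraries in the fit, the replicate number as a block, voom precision weights and leaving out each library. Some items are not reported here.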

Additional observations from a re-analysis of the deposited data

How the results depend on the processing

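On the deposited scale 339 genes were called higher and 47 lower in Fraction 2 than in DZ. Of these genes 220 were among those called at equal totals. On that scale 27 genes were called between Fraction 3 and DZ and 301 between Fraction 2 and Fraction 3. Of the 301, 299 were higher in Fraction 2 and 2 lower, against 49 and 28 at equal totals. At most 2 of the genes given here as lower in Fraction 2 than in Fraction 3 can thus be called so on the deposited scale. A fit of the compared libraries alone called 118 higher genes in Fraction 2 vs DZ. Fits of this kind called 0 genes by limma between Fraction 3 and DZ (1147 at an unadjusted p under 0.05) and 0 by limma between Fraction 2 and Fraction 3 (1414 at an unadjusted p under 0.05). Separately, voom weights in the fit of all 15 libraries, an alternative chosen after seeing the data, called 116 and 133. A pseudocount of 0.25 gave 74 calls between Fraction 3 and DZ and 47 between Fraction 2 and Fraction 3, and median ratios gave 45 between the latter. Leaving out 1 library gave 88 to 126 higher and 117 to 149 lower genes in Fraction 2 vs DZ, 43 to 94 calls in Fraction 3 vs DZ and 17 to 36 in Fraction 2 vs Fraction 3. With the replicate number as a block, Fraction 2 vs DZ had 171 higher and 202 lower genes, and Fraction 2 vs Fraction 3 had 40 calls. The numbers share no source in the labels, the deviations of same-numbered Fraction 2 and DZ libraries correlated at -0.005, 0.032 and 0.001, and not every library correlated best with its own number. Among the 80 named genes, those whose direction turned were uncalled. On the deposited scale they were Bcl6 (0.13), Prdm1 (0.0062), Ccnd3 (0.0193) and Ebf1 (0.20), and on leaving out 1 library Xbp1 (-0.0731 to 0.27), Ebf1 (-0.24 to 0.20) and Prdm1 (-0.0650 to 0.0547). The cause was not tested. An edgeR fit was planned and not run, because a part of the values above 0 were not whole multiples of the library constant. Genes at a few molecules per library, such as Prdm1 and Pax5, are limited by depth.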

Other observations

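Beyond the genes and lists above, the next 12 genes in each direction by size of change, chosen after their values were seen, held several without a place in the lists. The related genes Mif and Ddt, which encode cytokines of the macrophage migration inhibitory factor family, were both higher in Fraction 2. Mif stood at 42.1, 38.6 and 48.4 against 16.3, 14.2 and 15.6 in DZ, a rise of 1.42 ± 0.17 (adjusted p = 1.85e-05). Ddt stood at 13.5, 10.7 and 10.8 against 3.36, 2.62 and 3.47, a rise of 1.61 ± 0.18 (adjusted p = 1.04e-05). Both were also higher than in Fraction 3, by 1.18 (adjusted p = 0.00128) and 1.38 (adjusted p = 0.000442). Syngr2, a vesicle membrane protein, stood at 11.3, 15.2 and 13.3 against 3.68, 3.59 and 6.80 and rose by 1.37 ± 0.17, with no call between the light zone fractions (0.29, adjusted p = 0.564). Havcr1, which encodes the receptor TIM-1, rose by 1.24 ± 0.20 (adjusted p = 0.000601).

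On the lower side Smarca4, the ATPase of the BAF chromatin remodelling complex, stood at 6.98, 6.92 and 7.22 in Fraction 2 and at 20.3, 18.1 and 16.5 in DZ (-1.26 ± 0.16). Fli1, an ETS family transcription factor, stood at 3.13, 2.65 and 3.50 against 8.81, 8.28 and 9.26 (-1.26 ± 0.16). Cat, the catalase that breaks down hydrogen peroxide, stood at 3.13, 2.42 and 1.64 against 7.53, 8.97 and 6.08 (-1.34 ± 0.24, adjusted p = 0.00217), a call lost on the deposited scale (-1.04, adjusted p = 0.0854). Of the 12 lower genes Cyp4f18 was the 1 that also differed between the light zone fractions (-1.13, adjusted p = 0.0102).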
